A study of Mus musculus with 3 samples.

Results

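The genes described here are 6 STAT transcription factors (Stat2, Stat3, Stat4, Stat5a, Stat5b and Stat6) and 3 inhibitors of the SOCS family (Socs1, Socs3 and Cish) in mouse peritoneal macrophages. They were chosen by name: every probe that is not a control and whose name in the array file, or current symbol through its accession, is 1 of these 9 was taken, whatever its signal. That gave 14 of 41174 probes and 9 of the 14562 genes that were well above background on at least 1 array. Each of the 9 genes has a probe well above background on all 3 arrays, so none was lost to the filter on dim signals.

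Cells were washed from the peritoneum of male Swiss albino mice aged 8 weeks, in 3 groups of 10 animals with 1 one-colour Agilent array each. All mice, controls too, had an injection of lipopolysaccharide (125 µg, intraperitoneal) on day 0 and of the phorbol ester TPA (100 ng) on day 4. In the control group TPA was given alone. In the chromate groups it was given together with potassium dichromate, the hexavalent form of chromium that the labels write as Cr(VI), at 35 nmol or at 70 nmol. The cells were harvested 4 days later in a medium that contained GM-CSF, itself a cytokine that signals through Stat5a and Stat5b, for all groups. No array holds cells without lipopolysaccharide and TPA, and the labels do not say whether an array carried RNA of 1 animal or of a pool. The question that the comparisons address is how the transcripts of this signalling pathway differ after chromate. The 1 array per group allows no test, so every difference below compares these arrays only.

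Cytokine receptors without an enzyme of their own signal through Janus kinases, which phosphorylate STAT proteins; these then pair, enter the nucleus and switch on genes. Stat2 acts with Irf9 downstream of type I interferon, Stat3 downstream of IL-6 and IL-10, Stat5a and Stat5b downstream of GM-CSF, Stat6 downstream of IL-4 and IL-13, and Stat4 downstream of IL-12, mainly in lymphocytes. SOCS proteins are made in response to the same signals and shut the receptors and kinases off, so their transcripts are often read as a trace of recent cytokine signalling. STAT activity itself lies in phosphorylation, which an expression array does not measure.

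The stretches below are shown because they are those promoter stretches of the 9 genes that hold letters known to be bound by STAT complexes. RefSeq promoter windows on build GRCm38.p6 (250 bases before to 50 after a transcription start) were found for all 9 genes, 12 windows in all. Both strands were searched for TTCNNNGAA, the GAS element with a 3-base spacer that most STAT pairs bind, for TTC and GAA around any 4 bases, the form that Stat6 prefers, and for GAAA, any 2 bases and GAAA again, the core of the interferon-stimulated response element (ISRE) that the complex of Stat2 and Irf9 binds. Capitals mark the matches, and positions count from the start, with -1 the base before it.
Stat2, chr10:128270248-128270327, plus strand, -250 to -171: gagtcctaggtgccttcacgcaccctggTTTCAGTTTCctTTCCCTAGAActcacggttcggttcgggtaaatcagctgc
Stat4, second window, chr1:52008108-52008187, plus strand, -132 to -53: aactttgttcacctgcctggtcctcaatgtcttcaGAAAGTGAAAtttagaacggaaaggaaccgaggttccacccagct
Socs1, chr16:10785572-10785651, minus strand, -115 to -36: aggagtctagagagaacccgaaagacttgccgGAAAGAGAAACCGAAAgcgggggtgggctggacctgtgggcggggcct
Socs3, chr11:117969477-117969556, minus strand, -190 to -111: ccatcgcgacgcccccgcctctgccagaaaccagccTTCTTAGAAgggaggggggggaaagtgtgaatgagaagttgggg
Cish, chr9:107296654-107296683, plus strand, -5 to 25: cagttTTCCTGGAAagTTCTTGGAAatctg

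Stat2 carries an ISRE core from -222 to -213 and the 4-base-spacer form from -210 to -201. Socs1 carries 2 overlapping ISRE cores, from -83 to -74 and from -77 to -68, and Stat4 has 1 in the second of its 2 windows, from -97 to -88. Socs3 holds 1 GAS element from -154 to -146, and Cish holds 2 just after its start, from 1 to 9 and from 12 to 20. Among 32851 windows of the same length, 3.44% hold an ISRE core, 8.30% a GAS element and 6.95% the 4-base-spacer form. The other 7 windows, those of Stat3, Stat5a, Stat5b and Stat6 and the first of Stat4, hold none of these letters. A match describes the sequence, not a bound site, and a missing match says only that the letters are not in that window.

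**Figure D1:**
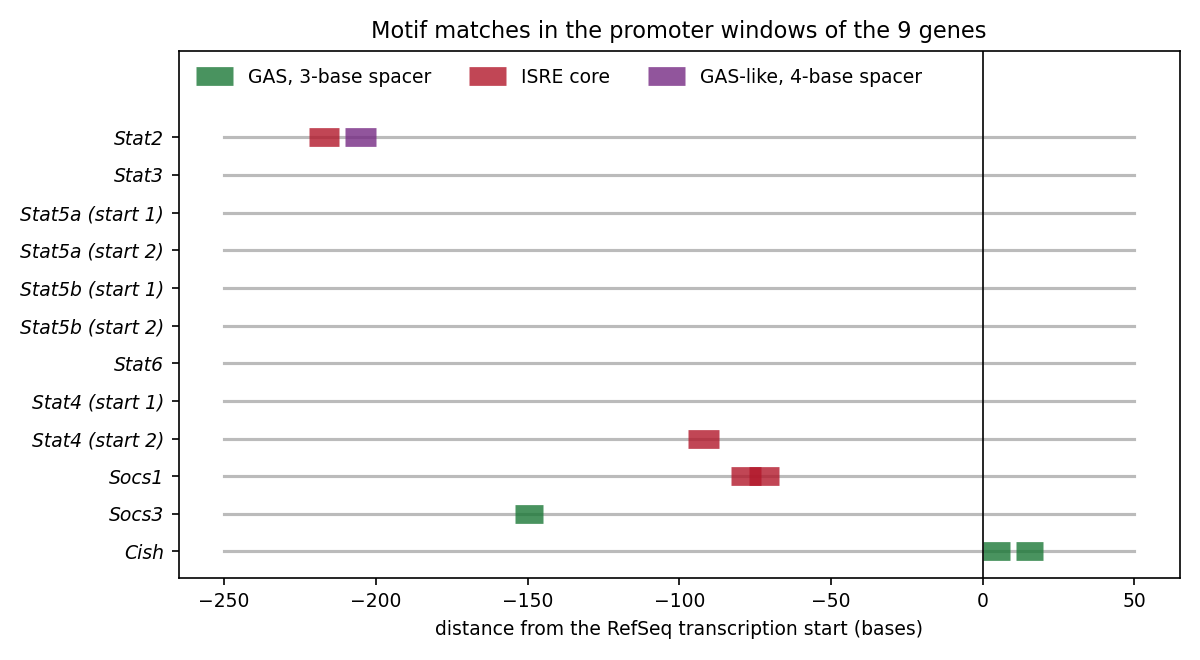
Matches to the GAS element (3-base spacer), the GAS-like form (4-base spacer) and the ISRE core in the promoter windows of the 9 genes, plotted by distance in bases from the RefSeq start; grey lines span each window. The ISRE cores of Stat2, Stat4 and Socs1 lie before the start, whereas the 2 GAS elements of Cish lie just after it.

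Levels below are log2 processed signals relative to the 75th percentile of each array, and differences are on the same log2 scale except where given as a fold. Scaling on spike-in RNA shifted the median of all genes against the control by -0.42 (35 nmol) and -0.36 (70 nmol), so a positive difference smaller than that turns negative with it. The level of 1 gene is not compared with that of another, because probes differ in brightness. The error given with a difference is that of the scanner software, which for bright spots is mostly a preset 10% of the signal on each array; repeated spots of a probe well above background had a median standard deviation of 0.034 to 0.045. Neither covers the spread between animals.

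Stat2, the interferon STAT, had the largest difference among the STAT genes. Its level was 3.63 in the control, 3.91 at 35 nmol and 4.41 at 70 nmol. The order followed the dose, and the 70 nmol array stood apart from both others by more than the scanner error. Stat2 was 1.72-fold higher at 70 nmol than in the control (0.78 ± 0.20) and 1.41-fold higher than at 35 nmol (0.50 ± 0.20). At 35 nmol it differed from the control by 0.28 ± 0.20, a difference that turned to -0.14 when arrays were scaled on spike-in RNA. Of all measured genes, 2.98% lay at least as high as Stat2 at 70 nmol against the control, and 11.5% did at 35 nmol. The single Stat2 probe lies at chr10:127695074-127695133 on the plus strand in the array design's mm8 positions.

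Stat3, which carries the signals of IL-6 and of the anti-inflammatory cytokine IL-10, was read on 10 repeated spots per array. The 10 control spots lay between 5.35 and 5.44 (median 5.41), those at 35 nmol between 5.66 and 5.78 (median 5.74), and those at 70 nmol between 5.65 and 5.78 (median 5.73). Scaled in this way, the spots of the control array did not overlap those of either chromate array, while the chromate arrays overlapped each other. Before scaling the probe's signals were 11418, 10970 and 11320, with the control highest, so the separation depends on the scaling. How many other probes with repeated spots separate in this way was not counted. The differences from the control were 0.33 ± 0.20 at 35 nmol and 0.32 ± 0.20 at 70 nmol, about 1.26-fold and 1.25-fold, and the doses differed by -0.01 ± 0.20. Spike-in scaling turned both to -0.09 and -0.05. The spots share 1 RNA per array, so they show the precision of the reading only. This probe lies at chr11:100704374-100704433 (minus strand, mm8). A second, dim Stat3 probe gave levels of -3.08, -3.29 and -2.76 in the order control, 35 and 70 nmol. Its differences from the control were -0.21 ± 0.40 at the lower dose and 0.32 ± 0.35 at the higher. At 35 nmol the 2 probes therefore had opposite signs, with the dim one smaller than its own error.

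Stat5a and Stat5b, the near-identical pair behind GM-CSF signalling, differed by no more than the scanner error in any comparison. Stat5a had levels of 2.52, 2.64 and 2.55 in the control, at 35 and at 70 nmol. Its differences of 0.12 and 0.03 from the control were smaller than the scanner error of 0.20, and 32.5% and 51.4% of all measured genes lay at least as high. Stat5b had levels of 3.40, 3.38 and 3.21. It differed by -0.02 at 35 nmol and by -0.19 at 70 nmol, also within the error of 0.20. A Stat5b probe that spans 1049 bases of the genome was well above background on the control array alone, at -3.63, and another Stat5b probe on none. The Stat5a and Stat5b probes lie at chr11:100700920-100700979 (plus strand) and chr11:100596875-100596934 (minus strand) in mm8. Whether either also binds the other transcript was not tested.

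Stat6, the STAT of IL-4 and IL-13, was slightly higher at 70 nmol on both of its bright probes. The brighter probe, at chr10:127063582-127063641 (plus strand, mm8), had levels of 3.02 in the control, 3.06 at 35 nmol and 3.28 at 70 nmol. The other, with 10 spots per array, ranged from 2.30 to 2.41 in the control, from 2.36 to 2.42 at 35 nmol and from 2.57 to 2.65 at 70 nmol. On this scale only the 70 nmol spots stood apart, while the control and 35 nmol spots overlapped. Before scaling the signals of this probe were 1374, 1078 and 1306, with the control highest, so the separation depends on the scaling. Here too the spots share 1 RNA per array and show the precision of the reading only. The 70 nmol difference from the control was 0.26 ± 0.20 on the first probe and 0.25 ± 0.20 on the second, and -0.10 on the first with spike-in scaling. Another, dim Stat6 probe gave -0.35 ± 0.34 at 35 nmol and 0.14 ± 0.31 at 70 nmol.

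Stat4, the IL-12 STAT of T and NK cells, had levels of -0.07 in the control, -0.21 at 35 nmol and 0.07 at 70 nmol. The differences from the control, -0.14 and 0.14, were within the scanner error of 0.21, and the doses differed by 0.28 ± 0.21. Spike-in scaling turned the 70 nmol difference to -0.22. Of the 20 T and NK cell markers, 19 were well above background in the control and at 35 nmol and 18 at 70 nmol, and Cd4 was on no array. Their summed level was 6.16, 6.18 and 6.12 (log2) on these arrays, and their median differences from the control were 0.02 and -0.00. The samples are labelled as peritoneal macrophages, but marker transcripts of other cell types were also well above background. Fewer cells of a type and less RNA per cell therefore cannot be told apart here or for any gene below.

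Socs1, which blocks the Janus kinases after interferon and IL-4 signals, had the largest difference from the control of all 9 genes at 35 nmol. Its level was 3.69 in the control, 4.54 at 35 nmol and 4.43 at 70 nmol. Both chromate arrays stood clearly above the control and within the error of each other. Socs1 was 1.80-fold higher at 35 nmol (0.85 ± 0.20) and 1.67-fold higher at 70 nmol (0.74 ± 0.20), and the doses differed by -0.11 ± 0.20. Under spike-in scaling the differences were smaller, 0.43 and 0.38, and kept their sign. In all, 1.54% of all measured genes lay at least as high as Socs1 at 35 nmol, and 3.31% did at 70 nmol. Among the 939 genes within 0.5 of its mean level at 35 nmol, 0.32% did. The Socs1 probe lies at chr16:10697436-10697495 (minus strand, mm8).

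Cish, the founding SOCS member and a classic Stat5 target, had levels of 1.53 in the control, 2.28 at 35 nmol and 2.00 at 70 nmol. The control was the lowest array and 35 nmol the highest. Cish was 1.68-fold higher at 35 nmol (0.75 ± 0.20) and 1.39-fold higher at 70 nmol (0.48 ± 0.20), while 70 nmol lay below 35 nmol by -0.27 ± 0.20. With spike-in scaling the differences from the control were 0.33 and 0.11. Of all measured genes, 1.91% and 8.25% lay at least as high at 35 and 70 nmol. The probe lies at chr9:107159966-107160025 (plus strand, mm8).

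Socs3, the inhibitor of IL-6 receptor signalling and the usual Stat3 feedback gene, had nearly the same level on all arrays. Its level was 4.82 in the control, 4.87 at 35 nmol and 4.73 at 70 nmol, and no pair of arrays differed by more than the scanner error. The differences from the control were 0.05 ± 0.20 and -0.10 ± 0.20, and 48.3% and 70.0% of all measured genes lay at least as high. The sign at 35 nmol turned under 4 of 7 alternatives, to -0.38 with spike-in scaling. Its probe lies at chr11:117782256-117782315 (minus strand, mm8), far from the block in which the Stat5b, Stat5a and Stat3 probes sit side by side on the same chromosome, 104.0 kb and 3.39 kb apart. In that block the 70 nmol differences were 0.32 for Stat3, 0.03 for Stat5a and -0.19 for Stat5b.

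**Figure D2:**
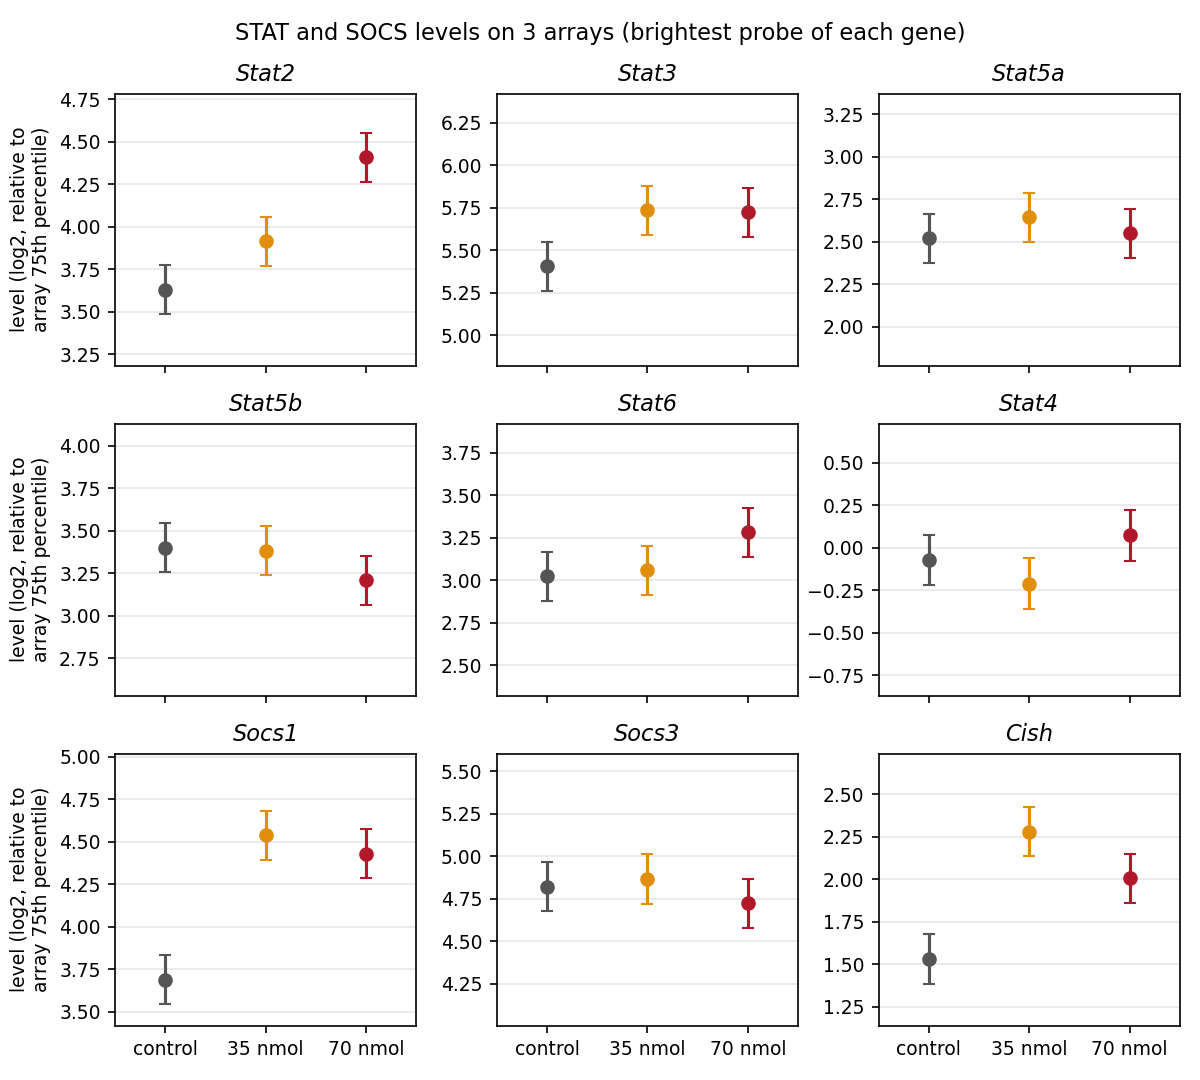
Level of each gene on the 3 arrays (log2 processed signal relative to the array's 75th percentile, brightest probe), with the scanner software's error as bars and 1 array per group; each panel spans the same 1.6 log2 units on its own centre. Stat2 is highest at 70 nmol (4.41 against 3.63 in the control), and Socs1 and Cish are higher on both chromate arrays. The Socs3, Stat4, Stat5a, Stat5b and Stat6 bars overlap across the arrays.

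None of the 9 genes differed 2-fold in any comparison. At 35 nmol against the control 1.42% of 12733 measured genes did so, 1.12% (143) higher and 0.298% (38) lower. At 70 nmol the share was 2.71% of 12541, with 1.63% (204) higher and 1.08% (136) lower. Between the doses it was 1.64% of 12388, with 0.92% higher and 0.718% lower at 70 nmol. With spike-in scaling the splits were 71 higher and 255 lower at 35 nmol, and 87 and 404 at 70 nmol. At 1.5-fold, Socs1 and Cish passed at 35 nmol, 2 of 9 beside 4.88% of all measured genes in either direction (2.96% higher and 1.92% lower). Socs1 and Stat2 passed at 70 nmol, 2 of 9 beside 9.38% (5.55% higher and 3.83% lower), and none passed between the doses beside 6.52% (3.67% higher and 2.85% lower). The 9 genes had a median difference of 0.12 at 35 nmol, with a range from -0.14 to 0.85, and of 0.26 at 70 nmol, from -0.19 to 0.78. The medians over all measured genes were 0.04 and 0.04. The comparisons of both doses use the same control array.

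**Figure D3:**
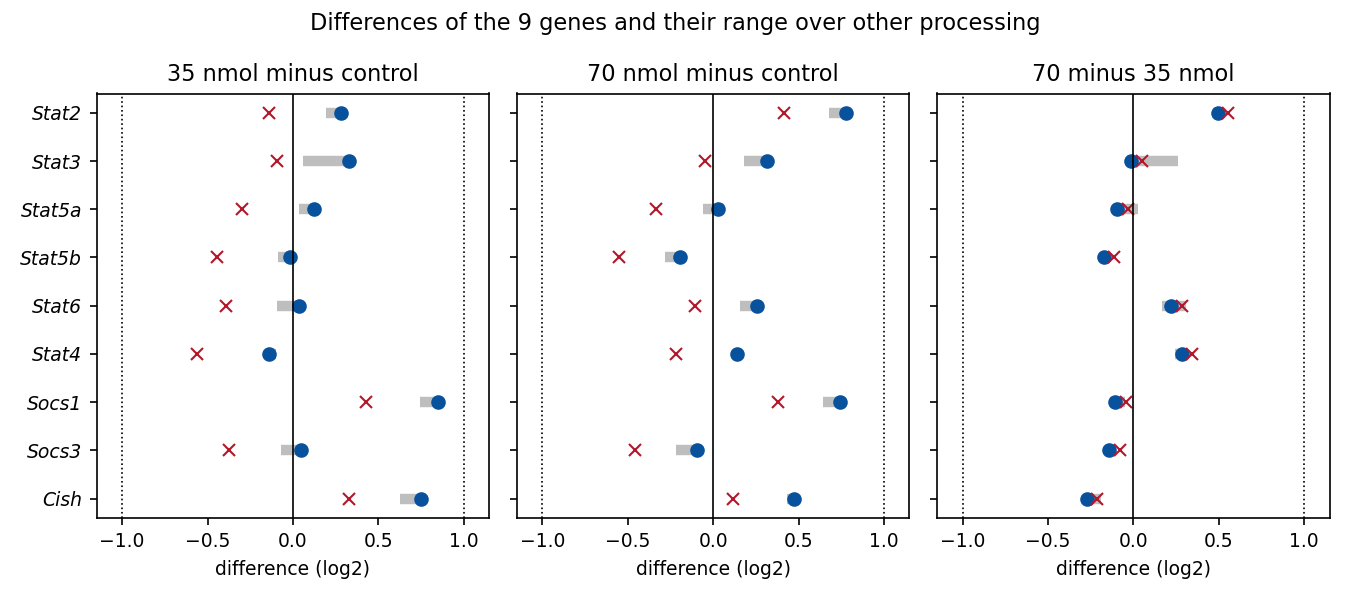
Differences (log2) of the 9 genes in the 3 comparisons: blue points as reported, grey bars the range over the other processing alternatives, red crosses scaling on spike-in RNA, dotted lines 2-fold. No point or bar reaches 2-fold; Socs1 at 35 nmol is nearest at 0.85, and spike-in scaling moves the differences from the control down by 0.42 at 35 nmol and 0.36 at 70 nmol.

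Over 3 arrays, the genes most like Stat2 in their pair of differences from the control, among 2309 of similar control level, were Paox, Prr5l and Fcgr1, the high-affinity Fc receptor. They lay at distances of 0.04, 0.05 and 0.06 (log2), and 13 genes lay within 0.1. For Cish they were Selenom, Fcgr2b and Adcy4, and 3 of 3238 lay within 0.1. For Socs1 none of 2237 lay within 0.1, and the nearest were Arg1, the arginase of alternatively activated macrophages, at 0.13, Pdpk1 at 0.14 and Epha2 at 0.23. For the other members 35 to 505 genes lay within 0.1, so many genes had patterns like theirs.

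Upstream of the members, few cytokine ligands were detected. Of 22 ligands on the array, 10 were well above background in the control, 8 at 35 nmol and 11 at 70 nmol, and among those on no array were Ifnb1, Csf2, which encodes GM-CSF, and Il12b. Il4 was dim, at -2.71 in the control, -1.14 at 35 nmol and -2.25 at 70 nmol. It was 2.97-fold higher at 35 nmol (1.57), with 0.46 at 70 nmol. At 35 nmol it was the single ligand of 8 measured past 2-fold, beside 1.12% of all measured genes higher and 0.298% lower. Ifng, the ligand of the type II interferon receptor, differed by 0.43 at 35 nmol and 0.03 at 70 nmol, Il6 by -0.00 and -0.59, and Ebi3, a subunit of IL-27, by -0.32 and -0.50. Il13 differed by 0.71 at 70 nmol and was not well above background at 35 nmol. The median over measured ligands was 0.14 at 35 nmol and -0.01 at 70 nmol.

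None of 24 measured receptor chains differed 2-fold at either dose, beside 1.42% (35 nmol) and 2.71% (70 nmol) of all measured genes. The receptor medians were 0.03 at 35 nmol and 0.15 at 70 nmol. The largest differences were those of Il27ra, at -0.37 and -0.87, of Csf3r, the G-CSF receptor, at -0.31 and -0.64, of Lifr at 0.56 and 0.18, and of Il5ra at -0.29 and -0.51. The 3 other Lifr probes gave only 0.06 to 0.21 at 35 nmol and -0.32 to 0.36 at 70 nmol. Of the 26 receptor genes listed, 3 are also on the cell type marker lists used here: Csf3r among neutrophil, Il5ra among eosinophil and Il7r among lymphocyte markers. The 4 Janus kinases had medians of -0.04 and -0.02. Jak1 differed by -0.01 and -0.05 at 35 and 70 nmol, Jak2 by 0.13 and 0.12, Tyk2 by -0.06 and 0.01, and Jak3 by -0.24 and -0.33, although a second Jak3 probe gave -0.03 and -0.07.

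Among 11 phosphatases, PIAS proteins and other brakes on the pathway none differed 2-fold from the control. Of all measured genes, 1.42% did at 35 nmol and 2.71% at 70 nmol. Usp18, which blocks the type I interferon receptor and is itself induced by interferon, differed by -0.01 at 35 nmol and 0.82 at 70 nmol. The phosphatases Ptpn1 and Ptpn11 differed by 0.23 and 0.32 at 35 nmol and by 0.41 and 0.35 at 70 nmol, and the SUMO ligase Pias4 by -0.21 and -0.29. The 2 other Ptpn11 probes gave 0.02 to 0.04 at 35 nmol and 0.10 to 0.19 at 70 nmol. In the rest of the SOCS family, Socs6 differed by 0.27 at 35 nmol and by 0.70 at 70 nmol, where another probe gave 0.81. Socs2, like Cish a Stat5 target, differed by 0.11 and -0.20, Socs4 by -0.24 and -0.04 (other probes -0.30 at 35 nmol and -0.27 to 0.22 at 70 nmol) and Socs5 by -0.02 and -0.34. Socs7 differed by -0.31 at 35 nmol and was not well above background at 70 nmol. None of 5 at 35 nmol or of 4 at 70 nmol was past 2-fold, beside the same 1.42% and 2.71% of all measured genes. With spike-in scaling the positive medians of the ligands, receptors and brakes turned negative, to between -0.39 and -0.21.

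Downstream, the targets of Stat2 and Irf9 lay above all genes at 70 nmol and level with them at 35 nmol. At the higher dose 6 of the 26 measured targets were past 2-fold upward, beside 1.63% of all measured genes, and none downward, beside 1.08%. Their median was 0.66, beside 0.04 over all measured genes. Of the 6, Oas3 (1.00) and Rsad2 (1.03) passed on their brightest probe only. The other Oas3 probe gave 0.58, and other Rsad2 probes gave 0.29 to 0.84. Ifit2, which binds viral RNA, differed by 1.76, the ubiquitin-like Isg15 by 1.32 and Ifit3 by 1.31, and Ifit1 was 2.15-fold higher. At 35 nmol none of 26 was past 2-fold, and the median was -0.00, with Ifit2 at 0.49 and Ifit3 at 0.46. The other Ifit2 probe gave 0.03 at 35 nmol and 1.51 at 70 nmol. Stat2 itself differed by 0.28 at 35 nmol and 0.78 at 70 nmol. Irf9, its partner, differed by -0.03 at 35 nmol and -0.05 at 70 nmol. The median at 70 nmol was 0.30 with spike-in scaling.

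The Stat6 targets had a median of 0.55 at 35 nmol and of 0.81 at 70 nmol, beside 0.04 over all measured genes at each dose. Past 2-fold, 4 of 19 measured lay higher and 1 lower at 35 nmol, beside 1.12% and 0.298% of all measured genes. At 70 nmol 6 of 18 lay higher and 2 lower, beside 1.63% and 1.08%. This list, like the others, was chosen with earlier results of these data known, so its counts are descriptive only. The chemokine Ccl8 differed by 0.72 and 2.58, the eosinophil-associated ribonuclease Rnase2a by 2.35 and 1.42, the mannose receptor Mrc1 by 0.42 and 1.59, and the lipoxygenase Alox15 by -0.20 and -1.65. Stat6 differed by 0.03 and 0.26 on these arrays. Of the 22 genes on the list, 2, Retnla and Alox15, are also markers on the cell type lists used here. With spike-in scaling the medians were 0.12 and 0.44.

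The Stat3, Stat5 and Stat4 target lists had medians closer to that of all genes than the Stat6 targets did. At 35 nmol 11 of 18 Stat3, 12 of 13 Stat5 and 7 of 10 Stat4 targets lay above the all-gene median. At 70 nmol 15, 9 and 4 of them did. Of all measured genes, 1.12% were 2-fold higher and 0.298% lower at 35 nmol, and 1.63% and 1.08% at 70 nmol. Of 18 measured Stat3 targets, 0 were higher and 2 lower by 2-fold at 35 nmol, and 0 higher and 1 lower at 70 nmol, with medians of 0.08 and 0.21. Lcn2, an iron-carrier-binding protein, differed by -1.46 and -1.29, the protease inhibitor Timp1 by -1.04 and 0.15, Fgl2 by 0.34 and 0.64 and the transcription factor Nfil3 by -0.51 and -0.63. The other Fgl2 probe gave 0.03 and 0.21. Saa3 was saturated and is not counted as measured. Of 13 measured Stat5 targets, 1 was higher by 2-fold at 35 nmol, Il2ra, the alpha chain of the IL-2 receptor, at 1.12, and none at 70 nmol, with medians of 0.20 and 0.15. Cyclin D1, Ccnd1, differed by 0.37 and 0.95, the chemokine Ccl17 by 0.88 and 0.71 and the survival gene Bcl2l1 by 0.07 and 0.84, although a second Bcl2l1 probe gave 0.29 at 70 nmol. Of 10 measured Stat4 targets, 1, again Il2ra, was higher by 2-fold at 35 nmol and none at 70 nmol, with medians of 0.12 and -0.04; Prf1, perforin, differed by 0.05 and -0.59, Il18rap by -0.11 and -0.52, and the protease Furin by 0.36 and 0.45. Prf1 and Gzmb of the Stat4 list and Irf4 of the Stat5 list are also on the cell type marker lists. Ccl17 of the Stat5 list is also on the Stat6 list. Spike-in scaling turned the positive medians of these 3 lists negative, to between -0.34 and -0.15.

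**Figure D4:**
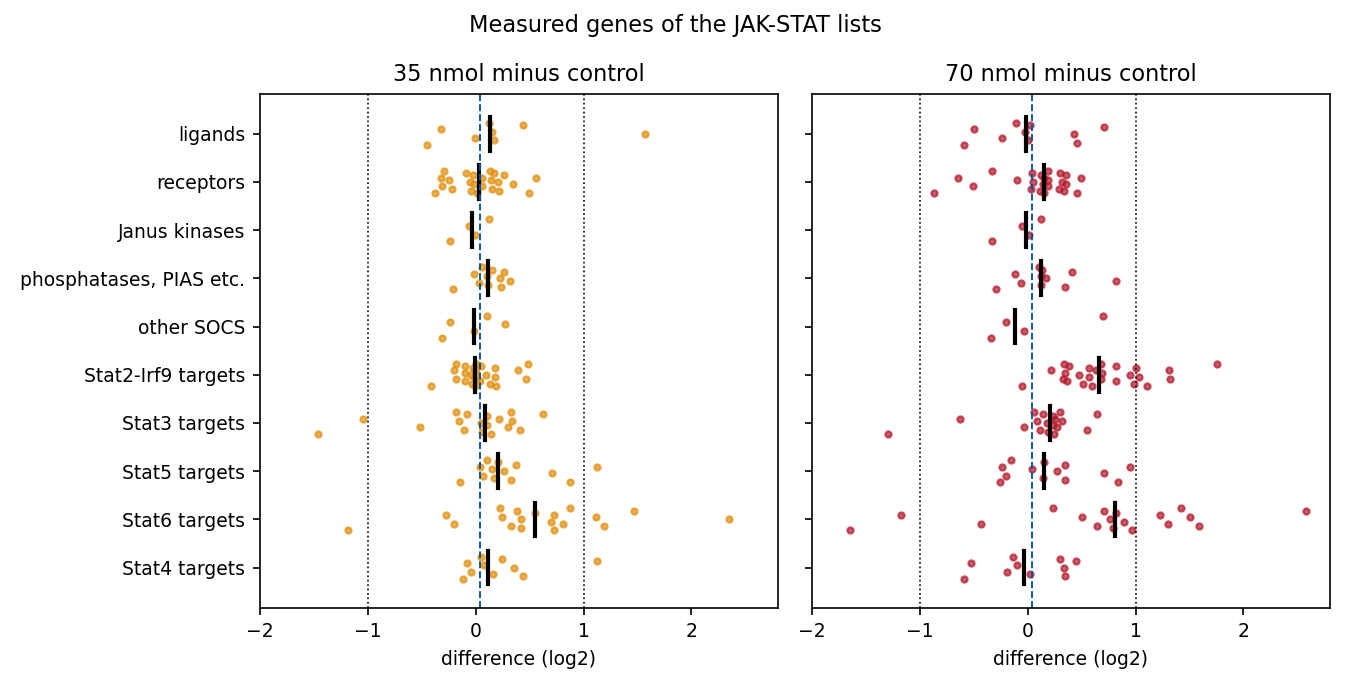
Differences (log2) from the control of the measured genes of 10 JAK-STAT lists at 35 nmol (left) and 70 nmol (right); points are genes, black bars list medians, the dashed line the median of all measured genes and dotted lines 2-fold. The Stat2-Irf9 targets sit at the all-gene median at 35 nmol and around 0.66 at 70 nmol, and the Stat6 targets lie above it at both doses.

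Markers of other cells moved between the same arrays, and their part in the values above was not tested. All 10 general macrophage markers were well above background on all 3 arrays. Lyz2 and Ctss were not counted as measured, and the median differences of the other 8 were -0.01 at 35 nmol and 0.12 at 70 nmol. At 70 nmol these 8 ranged from -0.51 (Adgre1) to 0.76 (Fcgr1). Large peritoneal macrophage markers, 10 of 10 detected, had a summed level of 9.52 in the control, 9.62 at 35 nmol and 9.42 at 70 nmol (log2). That sum includes Icam2, at 7.86, 8.22 and 8.10, which was not counted as measured. Of 9 measured, 6 were at least 2-fold lower at 70 nmol, beside 1.08% of all measured genes, while Cd5l was higher by 0.37. Their median differences were -0.28 at 35 nmol and -1.11 at 70 nmol. For monocyte markers, detected in 6, 5 and 7 of 7, the summed level was 6.76, 7.18 and 7.42. For fibroblast markers, 5, 5 and 7 of 7, it was 3.32, 3.50 and 5.06, and for mast cell markers, 6 of 8 on every array, 4.61, 3.75 and 2.91. Eosinophil markers, detected in 4, 5 and 4 of 7, gave 1.24, 1.70 and 1.28, with the defining Epx and Prg2 well above background on none. Hepatocyte markers, detected in 9, 9 and 2 of 10, gave 4.48, 6.12 and -0.89, and red cell markers, 4 of 6 on every array, 6.07, 3.54 and 5.14. For neutrophil markers, 6, 6 and 7 of 9, the summed level was 3.37, 2.89 and 3.88, and S100a9 alone was at 2.36, 1.11 and 3.37. At 70 nmol S100a8, S100a9 and Retnlg were higher than in the control and Cxcr2, Mmp9 and Csf3r lower. The neutrophil median there was -0.07. For B cell markers, 10 of 10, the sum was 8.11, 8.05 and 7.76. For dendritic cell markers, 3 of 7, it was 1.16, 0.88 and 1.27, and for mesothelial markers, 2, 2 and 3 of 6, -1.06, -0.94 and -0.13.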

How the data were processed

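RNA of 3 groups was measured on 1 array each, and the arrays share a slide, so slide position and group cannot be told apart. The deposited intensity columns were made by the authors with Agilent Feature Extraction 10.5.1.1, per the file headers, which subtracted background and spatial trends; probe positions belong to build mm8. The value table that the authors deposited is in log2 units, with column medians of -3.60, -3.74 and -3.78; each column equalled the log2 processed signal minus a constant (8.00, 7.61 and 7.67) within 0.01 for at least 99.8% of probes well above background, so its scale and direction are known and genes were not centred. 

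Here the log2 processed signal was scaled on each array's 75th percentile over 43379 spots that are not controls, outlier spots were dropped and the spots of a probe averaged. Well above background is the software's flag (a multiple of 13). It held for 49.1%, 45.9% and 45.1% of probes in the control, at 35 and at 70 nmol. Of 41174 probes, 24375 were named through RefSeq accessions (GRCm38.p6), 6301 by symbol, 2426 by a unique synonym and 8072 by the file's name alone. A gene took its brightest probe and counted as measured where that probe was well above background and not saturated on both arrays. Where in an exon or UTR a probe lies was not analysed here. With 1 array per group no test was run; a gene was counted at 2-fold or more. The steps were tested on simulated data with planted changes, made from the control array with little added noise. That checks that the steps run as meant, not how often the 2-fold count errs on these arrays.

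The members and the gene lists were chosen with earlier results of these data known. Named by rule were all members, Janus kinases and other SOCS genes. The rule also named up to 4 genes of every other pathway list, ranked by their larger difference of the 2 doses. It further named the 3 nearest patterns within 1 log2 of a member's control level. Other genes were named besides the rule, after their values were seen. Among them were Ifng, Irf9, Ifnb1, Csf2, Il12b, Oas3, Rsad2, Saa3 and single genes of the cell type marker lists. Python 3.11.15, numpy 2.4.6, pandas 2.3.3, matplotlib 3.10.9, R 4.3.3 and limma 3.58.1 were used.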

Additional observations from a re-analysis of the deposited data

How the results depend on the processing

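No measured member reached 2-fold in any comparison under normexp background correction (offset 50), quantile or cyclic loess normalisation, division by the detected probes' median or by spike-in RNA (4 of 10 probes, between 8 and 14 on the log2 scale), a looser or stricter dim-probe filter, averaging all probes of a gene, the authors' value table or a 3-fold threshold; the stricter filter left 8 of the 9 measured. At 1.5-fold, 2 passed at 35 nmol and 2 at 70 nmol. Of 189 recomputed differences of single members, 169 moved by less than the scanner error. Of the 20 others, 18 came with spike-in scaling and 2 with the mean over probes. Much of this was fixed in advance. The authors' table, the detected probes' median and spike-in RNA each shift an array by a constant. The spike-in shift exceeds the scanner error in both comparisons with the control. Averaging changes only genes with more than 1 measured probe. The counts therefore say little about robustness. Stat2, Socs1 and Cish at 70 nmol, and Socs1 and Cish at 35 nmol, kept their sign under all 7 alternatives that recompute values. So did the negative differences of Stat4 and Stat5b at 35 nmol and of Stat5b and Socs3 at 70 nmol. That of Stat5b at 35 nmol was only -0.02, so a kept sign does not mark a large difference. For alternatives that shift by a constant, a kept sign follows from the size and sign of the difference. Counts of all genes past 2-fold, in the order 35 nmol, 70 nmol and between doses, were 65, 128 and 59 with normexp, 1118, 1361 and 1047 with the looser filter and 22, 84 and 46 with the stricter one. They were 622, 1176 and 808 at 1.5-fold, and 63, 71 and 40 at 3-fold. Spike-in scaling gave 326 at 35 nmol. With it the all-gene median shifted by -0.42 and -0.36 at 35 and 70 nmol. No paired analysis was possible because each group has 1 array. The dim probes of Stat3, Stat5b and Stat6 lie near background and carry little.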

Other observations

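Genes whose RefSeq promoter window holds the ISRE core (GAAA, any 2 bases, GAAA), as those of Stat2, Stat4 and Socs1 do, were also described over the whole array. At 70 nmol, 13 of 327 measured genes with the core (3.98%) were at least 2-fold higher than in the control, and 127 of 8654 without it (1.47%). Their median differences were 0.09 and 0.04. At 35 nmol the shares were 1.79% (6 of 336) and 1.23% (108 of 8795), and the medians were 0.05 and 0.05. For the GAS element TTCNNNGAA, found in the windows of Socs3 and Cish, the shares were 1.35% with the element and 1.58% without it at 70 nmol, and ran the other way at 35 nmol, 1.46% and 1.23%. Windows can be shared by neighbouring genes, and no test was run on these shares.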
